A study of Mus musculus with 24 samples.

Results

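The 45 genes described here make up the ribosome biogenesis and nucleolar programme: factors that transcribe, modify, cut and assemble ribosomal RNA into ribosomal subunits. They were taken as listed by symbol, whatever their values, but the list was chosen with earlier results of these data known. Counts of its genes therefore describe the list and are not an independent test of it. Of these, 44 had a probe set that names a single gene, among 18193 genes tested on the arrays. Mrto4, a factor of the large subunit, was covered only by a probe set shared with other symbols and has no value here. By role, 17 members serve the small (40S) subunit and 12 the large (60S) subunit. The others are 3 proteins of the box C/D and 4 of the box H/ACA ribonucleoproteins, 3 subunits of RNA polymerase I and 6 general nucleolar proteins.

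Ribosomes are built in the nucleolus, where RNA polymerase I transcribes a long precursor RNA that is chemically modified, cleaved and folded with ribosomal proteins. Resting lymphocytes make few ribosomes, and stimulation through the T cell receptor raises production before the cells grow and divide. The transcription factor MYC is known to drive many of these genes. BET proteins, which bind acetylated histones, are known to sustain MYC transcription in several cell types, and I-BET-762 blocks their bromodomains.

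All cells were CD4+ T cells of C57BL/6 mice that carry the 2D2 transgenic T cell receptor, and no other genotype was used. They were primed for 48 h on plates coated with antibodies to CD3 and CD28 under Th1 conditions, then taken off the plates and expanded for 2 more days. Priming took place with the solvent DMSO, with Control-768, the study's control compound, or with I-BET-762 at 0.25 or 0.5 µM. RNA came from the expanded cells as they were (resting) or after 4 h of renewed stimulation with the same antibodies (restimulated, labelled activated). This gives 8 groups of 3 arrays, 24 in all, with replicates numbered 1 to 3. The labels do not say whether each number is a separate animal, culture or pool, so p-values measure the spread between these samples, which may be technical. The sources used here do not give the concentration of Control-768, nor whether compound was present during restimulation. Values are array intensities on a linear scale, and differences are on the log2(intensity + 16) scale, where 1 is a doubling of the sum. A gene passed the test at an adjusted p under 0.05 (limma, Benjamini-Hochberg over all 18193 genes).

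Array medians lay between 37.4 and 44.4 and array maxima between 20543 and 21728. The summed intensity of 6 T cell markers lay between 20075 and 31431, against 58.3 to 104 for 5 B cell markers and 172 to 261 for 6 myeloid markers. The sum of 5 dendritic cell and MHC class II markers lay between 1326 and 2503 on resting arrays and between 427 and 1667 on restimulated arrays. Most of it was H2-Ab1, with a mean of 1389 over 24 arrays. The means of H2-Eb1, H2-Aa, Flt3 and Itgax were 73.5, 37.0, 36.0 and 30.8. The sum of the CD8 T cell markers lay between 412 and 632 on resting and between 530 and 957 on restimulated arrays, higher after restimulation in 11 of 12 same-numbered pairs. Most of this sum was Cd8b1, with a mean of 553 over 24 arrays against 81.9 for Cd8a. The sum of 3 NK cell markers lay between 73.5 and 208 on resting and between 52.8 and 282 on restimulated arrays. Lck and Trbc1 among T cell markers, and Klrb1c among NK cell markers, had no probe set of a single symbol. In whole-culture RNA, fewer cells of a type and less RNA per cell cannot be told apart. The 2 arrays of 0.5 µM I-BET-762 numbered 3, resting and restimulated, stood apart. The SD of their deviations from the group means over all genes was 0.33 and 0.34, against 0.175 to 0.288 on the others. The medians at 0.5 µM are given with and without them.

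**Figure D1:**
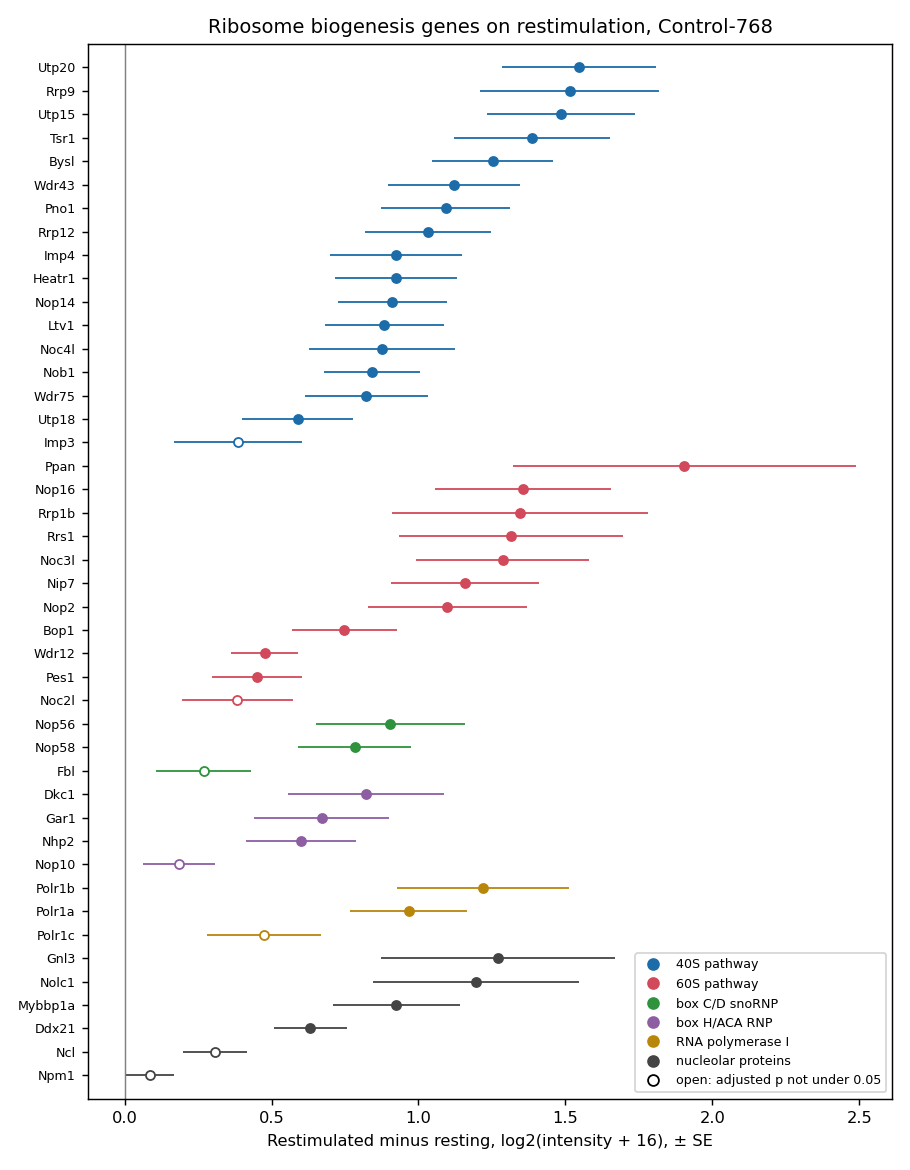
Log2 difference between restimulated and resting cells primed with Control-768, one point per gene and coloured by role, with the SE; the horizontal axis is in log2(intensity + 16) units. All 44 points lie to the right of 0, from Npm1 at 0.09 to Ppan at 1.90, and the open points are the 7 genes that did not pass the test.

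Restimulation for 4 h raised most of the programme. In cells primed with Control-768, 37 of 44 genes were higher and 0 were lower, where 8.89% of all genes tested were higher and 11.2% lower. The median difference was 0.92, against -0.03 over all genes tested. All 44 had 3 restimulated arrays above all 3 resting arrays, as did 16.6% of all genes tested. The genes that did not pass were Imp3, Noc2l, Fbl, Nop10, Polr1c, Ncl and Npm1. Every role group held genes that rose, and every role group held one or more that did not pass.

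Of the 17 small-subunit factors, 16 rose, with a median of 0.92. Bysl encodes bystin, which acts late in 40S maturation. Its intensity was 707, 652 and 691 on the resting arrays and 1868, 1370 and 1754 after restimulation. The lowest restimulated array lay well above the highest resting one, and the difference of 1.25 ± 0.21 (SE, n = 3 against 3; limma adjusted p = 0.000309) had the smallest p of the 44 members. Utp20, a large scaffold of the small-subunit processome, which is the particle that forms on the nascent precursor, went from 708, 816 and 833 to 2337, 2224 and 2398. This was a rise of 1.55 ± 0.26 (2.92-fold), the largest among the small-subunit factors. Rrp9 of the U3 particle rose by 1.51, and Utp15, of the group that couples precursor transcription to processing, rose by 1.48. Other members of that group rose less: Wdr43 by 1.12, Heatr1 by 0.92 and Wdr75 by 0.82. The cytoplasmic end of the pathway rose as well, with Tsr1 at 1.39, Pno1 at 1.09, Ltv1 at 0.88 and Nob1, the nuclease that trims the 18S RNA, at 0.84. Imp3 did not pass, at 0.39 ± 0.22 (adjusted p = 0.248), while its partner Imp4 rose by 0.92. The resting Imp3 values were 2620, 2677 and 1612, with array 3 the lowest. The SE comes from the spread within all 8 groups, and resting array 3 was low in each condition. Its difference from the mean of arrays 1 and 2 was -0.65 (DMSO), -0.71 (Control-768), -0.45 (0.25 µM) and -0.35 (0.5 µM).

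Of 11 large-subunit factors measured, 10 rose, with the highest median of the role groups, 1.16. Nip7, needed for processing of the precursor towards 60S subunits, measured 1980, 2181 and 1347 in resting cells and 4104, 3670 and 4352 after restimulation. Its rise was 1.16 ± 0.25 (adjusted p = 0.00282). Nop16 measured 1079, 1109 and 810 and then 2608, 2347 and 2730, a rise of 1.35 ± 0.30. In both genes resting array 3 was the lowest and the groups did not overlap. Ppan, an early 60S assembly factor, had the largest difference of the programme, 1.90 ± 0.58 (3.74-fold, adjusted p = 0.0250), but also the widest error. It measured 1054, 950 and 301 in resting cells, with array 3 far below the others, and 3004, 2139 and 2631 after restimulation. Rrp1b, Rrs1, Noc3l and Nop2, an RNA methyltransferase, rose by 1.35, 1.31, 1.29 and 1.10. The 3 subunits of the PeBoW complex, which acts on the 5.8S and 28S precursors, rose less: Bop1 by 0.75, Wdr12 by 0.48 and Pes1 by 0.45.

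RNA polymerase I has 3 members here. Polr1a, its largest subunit, measured 603, 663 and 564 in resting cells and 1276, 1098 and 1247 after restimulation, a rise of 0.97 ± 0.20. Polr1b, the second largest, measured 610, 615 and 401 and then 1354, 1157 and 1279, a rise of 1.22 ± 0.29. Polr1c, which RNA polymerase III also uses, differed by 0.48 ± 0.19 and did not pass (adjusted p = 0.0951).

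The box C/D particles guide methylation of ribosomal RNA. Their core proteins Nop58 and Nop56 rose by 0.78 ± 0.19 and 0.90 ± 0.25. Nop58 measured 5073, 5082 and 4621 in resting cells and 8595, 8469 and 8370 after restimulation. Nop56 measured 4793, 4983 and 4292 and then 9323, 8318 and 8712. Fibrillarin (Fbl), the methyltransferase of the same particle, differed by only 0.27 ± 0.16 and did not pass (adjusted p = 0.284). The box H/ACA particles guide pseudouridylation. Their synthase dyskerin (Dkc1) measured 4501, 4721 and 4120 and then 8098, 7696 and 7795, a rise of 0.82 ± 0.26. Nhp2 measured 4021, 4097 and 4321 and then 6297, 6105 and 6466, a rise of 0.60 ± 0.19, and Gar1 rose by 0.67. Nop10, the smallest protein of the particle, did not pass at 0.19 ± 0.12 (adjusted p = 0.331).

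Among the nucleolar proteins, Gnl3 (nucleostemin) and Nolc1 rose by 1.27 and 1.20. Mybbp1a, a nucleolar protein that binds transcription factors, measured 2564, 2788 and 3037 in resting cells and 5664, 5021 and 5262 after restimulation, a rise of 0.92 ± 0.22. The helicase Ddx21 measured 3014, 2877 and 3297 and then 4505, 4497 and 5276, a rise of 0.63 ± 0.12. Nucleolin and nucleophosmin, the most abundant proteins of the nucleolus, did not pass. Nucleolin (Ncl) differed by 0.31 ± 0.11 (adjusted p = 0.0546) and nucleophosmin (Npm1) by 0.09 ± 0.08 (adjusted p = 0.559). Npm1 was already at 13007, 13511 and 13055 on the resting arrays, against 13694, 13710 and 14598 after restimulation. Array maxima start at 20543, and whether the high level of Npm1 limited its measured rise was not tested.

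The probe set chosen for a gene mattered for some of these. Counting all probe sets, 30 members had more than 1. The chosen Ncl probe set was the brightest of 5, and the others gave 0.38, 0.52, 1.04 and 1.26, all past the threshold when all probe sets were tested together. For Noc2l a dimmer probe set passed (limma adjusted p = 0.00805) where the chosen one did not, and for Wdr12 a dimmer one gave 1.21 against 0.48. Fbl, Nop10 and Npm1 gave 0.23, 0.16 and 0.15 on their second probe sets, and again none passed.

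The wider pathway moved in part. Of 82 other assembly factors measured, 57 rose and 0 fell, with a median of 0.73. Eif6, which keeps immature 60S subunits from joining, rose by 0.91 ± 0.10, the small-subunit factor Pwp2 by 1.84 ± 0.26 and Nle1 by 1.09 ± 0.16. Of 9 partners of RNA polymerase I, 4 rose and 2 fell. The upstream binding factor Ubtf rose by 0.96 ± 0.17 and Taf1a by 1.06 ± 0.24, whereas Taf1b, another subunit of the same promoter-selectivity complex, fell by 0.64. Of 43 cytosolic ribosomal proteins, the structural parts of the ribosome, 1 rose (Rps25, 0.75 ± 0.25) and 0 fell, with a median of 0.01. Genes of DNA replication (2 of 23 lower, median -0.20) and of G2/M (12 of 19 lower, median -0.68; Cenpf fell by 1.33) held no gene that rose. The part in these results of the lower G2/M genes was not tested. Nor was that of the lower MHC class II sum, mostly H2-Ab1, and the higher CD8 marker sum on restimulated arrays.

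The same comparison was made within the other priming conditions. After DMSO, 38 of 44 genes were higher (9.15% of all genes tested; 11.7% were lower) with a median of 0.93. After 0.25 µM I-BET-762, 30 were higher (7.07%; 7.41% lower) with a median of 0.76, and after 0.5 µM, 41 were higher (10.5%; 12.8% lower) with a median of 1.43. None of the 44 was lower in any of the 4 conditions. In all, 30 genes were higher in all 4 conditions, as were 5.46% of all genes tested, and 7 in 3 of them: Dkc1, Gar1, Nhp2, Nolc1, Gnl3, Utp18 and Noc4l. Nop10, Npm1 and Imp3 passed in none. The count after 0.25 µM fell when 1 array was left out: it was 15 without restimulated array 3, 17 without resting array 3 and 18 without restimulated array 1. The median rise hardly moved, lying between 0.75 and 0.80 whichever array was left out. Leaving out 1 array also lowered the counts after Control-768 (26 to 31) and DMSO (28 to 34). With both 0.5 µM arrays numbered 3 left out, an alternative chosen after seeing the data, the counts were 41 after Control-768, 41 after DMSO, 39 after 0.25 µM and 36 after 0.5 µM. The median after 0.5 µM was then 0.88 in place of 1.43.

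The differences of single genes are given side by side, in the order DMSO, Control-768 and 0.25 µM I-BET-762. Ppan differed by 1.84, 1.90 and 1.82, Polr1b by 1.32, 1.22 and 1.25, Nop56 by 0.88, 0.90 and 0.79, and Npm1 by 0.13, 0.09 and 0.09. After 0.5 µM the same genes differed by 2.61, 1.83, 1.45 and 0.17. Without both 0.5 µM arrays numbered 3 these values were 1.58, 1.18, 0.86 and 0.07, and Ppan then did not pass (limma adjusted p = 0.102). These values were below those after Control-768, but the Control-768 values kept array 3, so the arrays compared were unlike. In resting Control-768 cells, array 3 minus the mean of arrays 1 and 2 was -1.68, -0.59, -0.19 and -0.02 for these genes. Several genes of the programme went the other way, as Pes1 differed by 0.55 against 0.45 after Control-768. Rrp12, Bop1, Heatr1, Wdr12, Mybbp1a and Polr1a also differed by more than after Control-768. No order between the conditions can be drawn from these values.

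**Figure D2:**
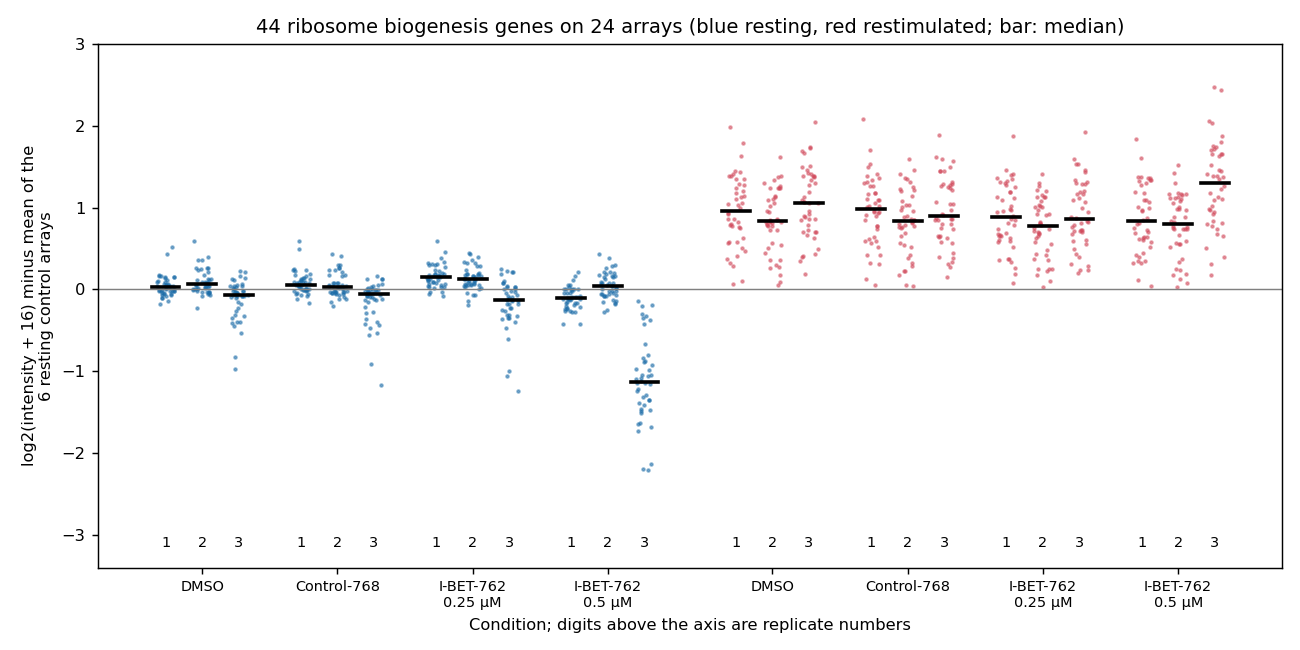
Each dot is 1 of 44 genes on 1 array, as log2(intensity + 16) minus the gene's mean on the 6 resting DMSO and Control-768 arrays; blue is resting, red restimulated, and black bars are medians. Resting 0.5 µM I-BET-762 array 3 has a median of -1.13, and its restimulated counterpart has the highest median, 1.31.

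The replicate numbers carried a pattern of their own. In resting cells, 22 of 44 genes were lower on the array numbered 3 than on both other arrays of its group in all 4 conditions, as were 15.1% of all genes tested. No gene of the 44 was higher on it in all 4, as 6.39% of all genes tested were. Ppan showed it most: array 3 minus the mean of arrays 1 and 2 was -1.53 (DMSO), -1.68 (Control-768), -1.74 (0.25 µM) and -2.29 (0.5 µM). For Rrp1b these differences were -1.24, -1.36, -1.51 and -1.40, and for Gnl3 -0.79, -0.66, -0.92 and -2.14. Myc itself gave -1.75, -1.43, -1.93 and -2.85 on the same arrays. In restimulated cells 17 of 44 genes were higher on array 3 in all 4 conditions (8.3% of all genes tested) and 0 were lower in all 4 (11.6%), and Ppan was 0.05 to 0.80 higher. The Gapdh 3′ minus 5′ probe set difference, a sign of RNA quality, was 0.149, 0.284, 0.285 and 0.312 on the restimulated arrays numbered 3 and lay between -0.02 and 0.10 on the other restimulated arrays, and its part in this pattern was not tested. What the number 3 stands for is not stated in the labels, and its part in the results was not tested apart from the fits with the number as a block.

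**Figure D3:**
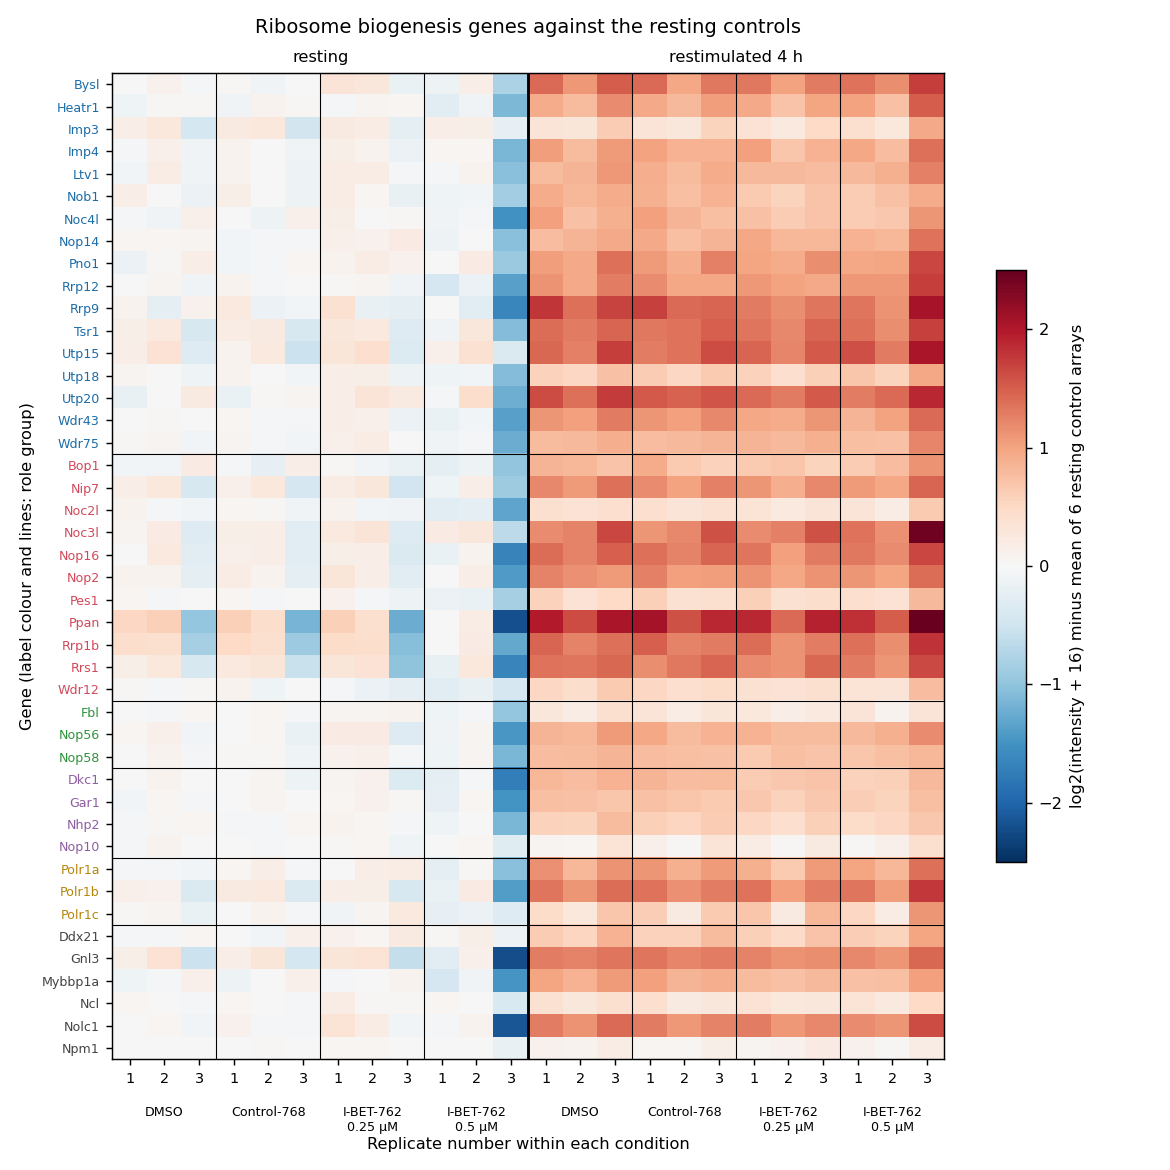
Heat map of 44 genes (rows, grouped by role) on 24 arrays (columns, 3 per condition), coloured by log2(intensity + 16) minus the mean of the 6 resting control arrays. All 44 genes are above 0 on each of the 12 restimulated columns; among resting columns, array 3 of 0.5 µM I-BET-762 is below 0 for all 44, and Ppan, Rrp1b, Rrs1 and Gnl3 are lower on array 3 of every condition.

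In resting cells primed with 0.5 µM I-BET-762, no gene of the programme differed from Control-768 past the threshold in the fit without a replicate block. Of 44 genes 0 passed, where 1.39% of all genes tested did (limma; 17 of 44 and 10.7% of all genes had an unadjusted p under 0.05, and the lowest adjusted p was 0.148, for Noc2l). Yet 42 of 44 differences were negative, with a median of -0.40 against -0.004 over all genes. The largest were Gnl3 at -0.79 ± 0.40, Nolc1 at -0.71 ± 0.35, Mybbp1a at -0.67 ± 0.22 and Rrp12 at -0.65 ± 0.21. With 0.5 µM, 8 of 44 genes had all 3 arrays below those of Control-768, against 7.23% of all genes tested.

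The values show where this median came from. Rrp12, which takes part in export of both subunits, measured 464, 423 and 432 with Control-768 and 321, 394 and 161 with 0.5 µM I-BET-762. Dkc1 measured 4501, 4721 and 4120 and then 3837, 4325 and 1340. Nolc1 measured 2693, 2435 and 2414 and then 2417, 2628 and 552. In each gene I-BET-762 array 3 was far below the other 5 arrays, and arrays 1 and 2 lay nearer the controls. This array was the lowest of the 12 resting arrays for 42 of 44 genes, as for 19.1% of all genes tested. Within replicate numbers the median difference was -0.19 for number 1, -0.02 for number 2 and -1.03 for number 3. Without resting 0.5 µM array 3 the median was -0.02, and without all arrays numbered 3 it was -0.10. In both cases 0 of 44 passed.

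On that array the change was wide but not even. Relative to Control-768 of the same number, many genes were more than 1 log2 unit lower, among them Nolc1, Dkc1, Gar1, Nop16, Gnl3, Noc4l, Mybbp1a and Rrp9. Only Utp15 and Imp3 were higher. The 82 other assembly factors had a median of -0.42 there and DNA replication genes -0.48, while G2/M genes were at 0.10. The cytosolic ribosomal proteins stayed at -0.02 relative to the resting controls. Relative to the same controls, the T cell markers were at 0.44. The part of these in the result was not tested. The Gapdh 3′ minus 5′ difference was -0.002 on this array and lay between -0.06 and 0.09 on the other resting arrays.

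With the replicate number as a block within each state, which pairs the arrays, 3 of 44 genes were lower with 0.5 µM in resting cells (3.33% of all genes tested). They were Ppan at -0.62 (adjusted p = 0.0305), Noc2l at -0.61 (adjusted p = 0.0393) and Gnl3 at -0.79 (adjusted p = 0.0456, limma). Ppan measured 1054, 950 and 301 with Control-768 and 700, 797 and 140 with 0.5 µM, lower within each number. Noc2l, a nucleolar protein of 60S assembly, measured 2741, 2690 and 2482 and then 2173, 2221 and 1052, lower within each number and with no overlap. With DMSO and Control-768 arrays pooled as the control, Noc2l alone passed (-0.61, adjusted p = 0.0494). Without resting 0.5 µM array 2, 4 genes were lower (1.84% of all genes tested passed): Mybbp1a, Rrp12, Gar1 and Noc2l.

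The block was also fitted without both 0.5 µM arrays numbered 3, an alternative chosen after seeing the data. Then 4 of 44 genes were lower with 0.5 µM in resting cells, where 8.12% of all genes tested passed: Ppan at -0.40, Rrp1b at -0.34, Gnl3 at -0.34 and Noc2l at -0.30. The share of members was near that of all genes, and the median over the 44 was -0.11. In the step from 0.25 to 0.5 µM in resting cells, Noc2l alone passed, at -0.28 (1.75% of all genes). With both concentrations pooled against both controls, Ppan, Rrp1b, Wdr12 and Noc2l were lower and Utp20 higher in resting cells (11.2%), with differences of -0.27 to 0.24. In restimulated cells Rrp9, Noc4l, Nob1 and Mybbp1a were lower (9.83%), with differences of -0.31 to -0.18. These shares too were near those of all genes.

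The block also gave more unadjusted p under 0.05 in these comparisons than the fit without it. They were 31 of 44 members for 0.5 µM against Control-768 in resting cells (18.5% of all genes), 33 for the step between concentrations in resting cells (13.9%) and 11 for the pooled comparison in resting cells (17%). The interaction at 0.5 µM had 15 (8.1%). In restimulated cells 0.5 µM against Control-768 had 2 (14.8%) and the step had 1 (8.79%). In the other comparisons of compounds none of the 44 had one.

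**Figure D4:**
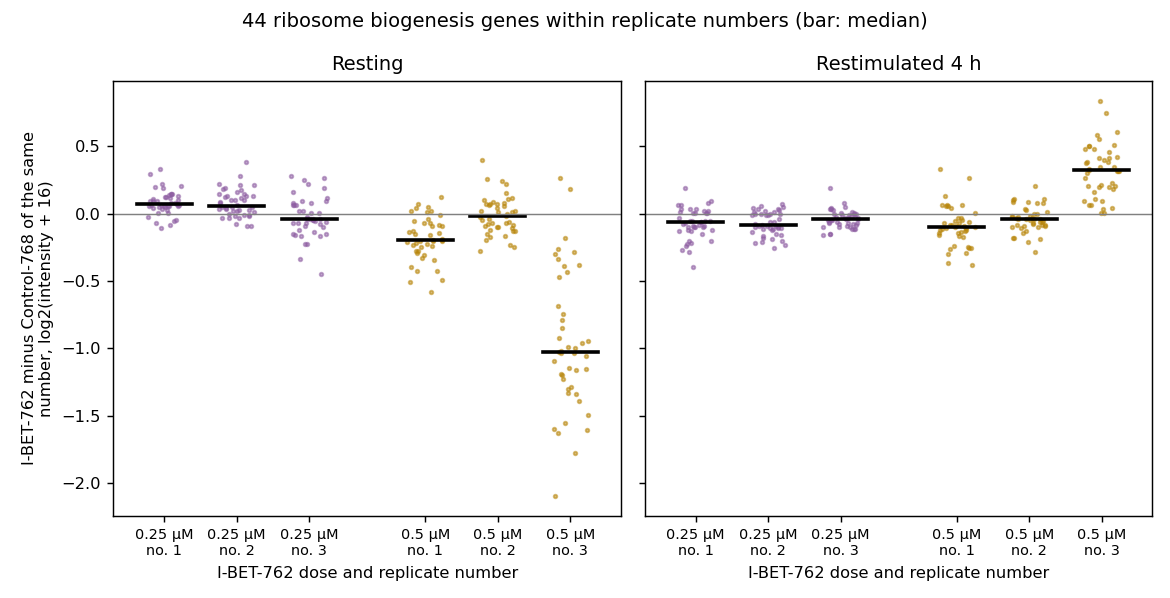
I-BET-762 minus Control-768 of the same replicate number in log2(intensity + 16) units, for 44 genes (dots) with their median (bar), at both concentrations, in resting (left) and restimulated cells (right). The medians lie between -0.19 and 0.07 except at 0.5 µM number 3, where they are -1.03 in resting and 0.32 in restimulated cells.

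At 0.25 µM in resting cells 0 of 44 genes passed (0.066% of all genes tested; 0 with an unadjusted p under 0.05), and the median difference was 0.05. Differences ran from -0.12 (Wdr12) to 0.26 (Utp20). All 3 arrays lay above those of Control-768 for 4 of 44 genes (888 of 18193 genes tested) and below them for 0 (950 of 18193). For 43 of 44 genes the 95% confidence interval of the difference lay within a 2-fold change either way. At 0.5 µM this held for 29. The step from 0.25 to 0.5 µM in resting cells had a median of -0.45 with 0 of 44 genes past the threshold (0.066% of all genes tested; 20 of 44 and 7.2% of all genes had an unadjusted p under 0.05). The median was -0.09 without both 0.5 µM arrays numbered 3 and -0.18 without all arrays numbered 3. In restimulated cells the step had a median of 0.12 (-0.03 without both arrays), again with 0 of 44 (0.011%; 0 with an unadjusted p under 0.05).

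The same control arrays served both concentrations. In restimulated cells no gene of the programme differed from Control-768 past the threshold. At 0.5 µM 0 of 44 genes passed (0.748% of all genes tested), the median difference was 0.05 (-0.07 without both 0.5 µM arrays numbered 3) and values ran from -0.15 (Dkc1) to 0.35 (Noc3l). At 0.25 µM 0 of 44 passed (0.0715%), with a median of -0.05. No gene of the 44 had an unadjusted p under 0.05 in either comparison (7.96% and 4% of all genes). The 95% interval lay within 2-fold for 42 genes at 0.5 µM and 43 at 0.25 µM, and within 1.5-fold for 25 and 27. A p that misses the threshold does not show that the levels were alike, and smaller differences could have gone unseen.

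Nob1 and Dkc1 show the values behind this. Nob1 measured 1916, 1739 and 1872 with Control-768 after restimulation, 1621, 1506 and 1685 with 0.25 µM and 1604, 1718 and 1956 with 0.5 µM I-BET-762. Only at 0.25 µM did all 3 arrays lie below those of Control-768. Dkc1 measured 8098, 7696 and 7795, then 6971, 7201 and 7405, and then 6732, 6771 and 7833. Neither passed in a comparison of I-BET-762 with a control in the fit of all arrays without the block. In all, 6 of 44 genes were lower without overlap at 0.25 µM (4.73% of all genes tested) and 0 at 0.5 µM (6.17%). They were Dkc1, Mybbp1a, Rrp9, Noc4l, Nob1 and Wdr12, with differences between -0.25 and -0.09.

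Restimulated 0.5 µM array 3 stood at the other end. It was the highest of 12 restimulated arrays for 36 of 44 genes, as for 17.7% of all genes tested. Relative to Control-768 of the same number all 44 were higher, with a median of 0.32, against -0.10 and -0.04 for numbers 1 and 2. Nop56 measured 8431, 8845 and 10830 at 0.5 µM against 9323, 8318 and 8712 with Control-768. On the same array DNA replication and G2/M genes had medians of -0.81 and -0.77 relative to Control-768 of the same number. Its Gapdh 3′ minus 5′ difference was 0.31, against 0.28 with Control-768 number 3. The part of these in the result was not tested.

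The interaction, which asks whether the I-BET-762 difference changes with restimulation, passed for 0 of 44 genes at 0.5 µM (0% of all genes tested; 6 of 44 and 3.58% of all genes had an unadjusted p under 0.05). All 44 values were positive, with a median of 0.47, led by Rrp12 at 0.91 ± 0.30. Without both arrays numbered 3 at 0.5 µM the median was -0.05, and without all arrays numbered 3 it was 0.02. At 0.25 µM 0 of 44 passed (0% of all genes tested; 0 with an unadjusted p under 0.05), with a median of -0.10.

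Both concentrations pooled against both controls left 0 of 44 genes past the threshold in resting (1.85% of all genes tested) and in restimulated cells (1.19%), where 3 and 0 had an unadjusted p under 0.05 (10.2% and 9.17% of all genes), with medians of -0.18 and -0.01. Without both 0.5 µM arrays numbered 3 these medians were 0.01 and -0.08, and without all arrays numbered 3 the resting one was -0.01. In resting cells Wdr12 had the smallest p. Its 6 control arrays ran from 1564 over a median of 1715 to 1793, and its 6 I-BET-762 arrays from 1258 over 1472 to 1662. The ranges overlapped, with a difference of -0.21 ± 0.08 (adjusted p = 0.291). Mybbp1a ran from 2564 over 2752 to 3060 in the controls and from 989 over 2653 to 2946 with I-BET-762, where a single array set the lower end. Rrp12 ran from 408 over 432 to 464 and from 161 over 403 to 455, and Dkc1 from 4120 over 4468 to 4741 and from 1340 over 4081 to 4840. Fbl ran from 5001 over 5089 to 5273 and from 2595 over 5139 to 5431, and Polr1b from 401 over 562 to 615 and from 187 over 517 to 595. The I-BET-762 ranges reached below the control ranges and overlapped them in all of these genes, which differed by -0.32 (Rrp12), -0.36 (Dkc1), -0.15 (Fbl) and -0.24 (Polr1b) and did not pass.

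In restimulated cells the first of each role group by p were Nob1 at -0.16, Mybbp1a at -0.14, Wdr12 at -0.07, Polr1c at 0.11, Dkc1 at -0.14 and Fbl at -0.05, and none passed. Nob1 ran from 1739 over 1894 to 1968 in 6 controls and from 1506 over 1653 to 1956 with I-BET-762. Polr1c ran from 1854 over 2307 to 2584 and from 1805 over 2414 to 3418, and Dkc1 from 7663 over 7867 to 8175 and from 6732 over 7086 to 7833. Their ranges overlapped, as did those of Mybbp1a (5021 to 5845 and 4630 to 5669), Wdr12 (2278 to 2696 and 2136 to 2917) and Fbl (5795 to 6769 and 5416 to 6403). Control-768 against DMSO gave 0 of 44 in resting and in restimulated cells (0% of all genes tested in each; 0 of 44 with an unadjusted p under 0.05), with medians of -0.003 and -0.04.

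Of the MYC family, Mycn passed the test for 0.5 µM I-BET-762 in both states. Myc passed in neither without the block. Myc measured 5899, 5929 and 2183 in resting cells with Control-768 and 9030, 8775 and 8466 after restimulation, a difference of 1.04 ± 0.63 that did not pass (adjusted p = 0.283). With 0.5 µM I-BET-762 it measured 4412, 4614 and 611 in resting cells and 8530, 8408 and 10910 after restimulation. The resting difference from Control-768 was -0.86 ± 0.63 (adjusted p = 0.713) and the restimulated one 0.07 ± 0.63 (adjusted p = 0.998). With the replicate block within state the resting difference passed (adjusted p = 0.0169) and the restimulated one did not (adjusted p = 0.918). Myc was thus lower on resting 0.5 µM array 3 and higher on restimulated array 3, as most of the 44 genes were.

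Mycn, a close relative of Myc, fell with the compound. It measured 459, 405 and 244 with Control-768 in resting cells and 32.5, 25.8 and 9.80 with 0.5 µM I-BET-762, a difference of -3.32 ± 0.39 (adjusted p = 5.28e-05). In restimulated cells it measured 744, 748 and 412 and then 77.6, 63.7 and 24.7, a difference of -3.23 ± 0.39 (adjusted p = 7.75e-05). At 0.25 µM the differences were -1.97 and -1.85 and did not pass (adjusted p = 0.0676 and 0.102), but with the replicate block within state both passed (adjusted p = 0.000362 and 0.00068). Max, the partner of MYC proteins, differed by 0.35 and 0.32 at 0.5 µM and did not pass. Mxd4, which competes for Max, fell by 1.25 on restimulation (adjusted p = 0.0146) and differed by -0.01 and -0.48 with 0.5 µM, which did not pass.

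The promoters were searched because the genes rose together and MYC proteins bind the E-box CACGTG, as do other factors of the same fold. RefSeq promoters of build GRCm38.p6, from 250 bases before to 50 after the gene start, were at hand for 40 of 45 members. The motif, which reads the same on both strands, stood in 10 of 40 (25.0%), in 8.09% of all 27025 genes of the table and in 10.2% of 14452 genes on the arrays. After the start it stood in 7 of 40, against 1.28% and 1.53% of those genes. Before the start it stood in 3 of 40 (7.5%), near the 7.07% and 9.04% of those genes. The other assembly factors held it in 15 of 65 promoters (23.1%) and the cytosolic ribosomal proteins in 6 of 56 (10.7%), none of these 6 with it after the start. These shares are a description with no test.

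The 7 matches after the start are printed with their flanks because they lie in the same short stretch, 30 bases each, 5′ to 3′ on the gene's strand with the motif in capitals. Utp20 (chr10:88826765-88826794, minus strand), Ltv1 (chr10:13193092-13193121, minus strand) and Pno1 (chr11:17211540-17211569, minus strand) hold it from bases 38, 29 and 38 after the start. Mybbp1a (chr11:72441347-72441376), Wdr43 (chr17:71616220-71616249), Tsr1 (chr11:74898092-74898121) and Pes1 (chr11:3963965-3963994), all on the plus strand, hold it from bases 41, 18, 25 and 3.
Utp20: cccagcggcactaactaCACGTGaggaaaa
Ltv1: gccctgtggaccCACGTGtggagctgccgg
Pno1: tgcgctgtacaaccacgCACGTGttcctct
Mybbp1a: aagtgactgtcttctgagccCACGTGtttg
Wdr43: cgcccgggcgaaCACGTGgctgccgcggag
Tsr1: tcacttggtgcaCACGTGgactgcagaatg
Pes1: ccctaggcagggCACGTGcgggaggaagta

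Utp18, Imp4 and Nop2 held the motif before the start. The 10 genes with the motif differed on restimulation under Control-768 by 0.45 (Pes1) to 1.55 (Utp20), with a median of 1.01. The 29 measured genes with a promoter but no match ran from 0.19 (Nop10) to 1.90 (Ppan), with a median of 0.90. The range with the motif lay within the range without it. A match names letters in a window and does not show that a factor bound there, and no match says only that these letters are not in this window.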

How the data were processed

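RNA of CD4+ T cells was amplified for 2 rounds, biotin labelled and hybridised to Affymetrix mouse arrays, per the labels' protocols. The authors deposited linear intensities for 45101 probe sets on each of 24 arrays; how they summarised and normalised them is not stated in the labels. GEO's platform annotation named 1 symbol for 34945 probe sets and several for 932. Per symbol, the probe set brightest on average was kept, 18193 genes in all. The deposited intensities were transformed here to log2(intensity + 16) and fitted in limma 3.58.1 (R 4.3.3) with 8 group means, 16 residual degrees of freedom and no replicate block; p-values are two-sided, adjusted by Benjamini-Hochberg over all genes of each of 16 comparisons. Array number limits the precision. On data simulated for restimulation with Control-768, the fit recovered 18 of 100 genes changed by 0.5 and 65 of 100 changed by 1 (log2). There were 7 false calls among the unchanged genes. Far fewer genes were changed there than passed on the real restimulation (8.89% higher and 11.2% lower), so the adjusted threshold was harder to reach. The simulated noise was also drawn independently for each array, while real same-numbered arrays of one state deviated together. The recovered shares and false calls are therefore not the power and error rate of the real comparison.

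Same-numbered arrays of one state deviated together (all 36 pairs correlated at 0.155 to 0.699). The main fit left this pairing out, and the replicate block within a state entered as an alternative. The main counts and intervals of the compounds thus ignore the pairing. For resting 0.5 µM against Control-768, 1.39% of all genes passed without the block, and 3.33% were lower with it. Between states 16 of 48 pairs exceeded 0.1, and the numbers were not taken as pairs. The members and lists were chosen with earlier results of these data known. Values on every array are printed for the 2 genes per role with the smallest p on restimulation and the first per role in the pooled comparisons; Ppan, Nolc1, Noc2l, Imp3, Npm1 and the other genes printed so were chosen after their values were seen. Alternatives were pseudocounts, a filter on dim genes, 2 normalisations, other probe set choices, fewer arrays and replicate blocks.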

Additional observations from a re-analysis of the deposited data

How the results depend on the processing

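Under the alternatives run, no count of the 44 genes changed its direction. On restimulation the counts after Control-768, DMSO and 0.25 µM I-BET-762 stayed within 1.5 times of 37, 38 and 30 under every alternative that kept all arrays, and 0 genes were lower. After 0.5 µM it was 41 of 44, but 16 when only the 2 groups compared were fitted; the cause was not tested. Leaving out 1 array at a time gave 26 to 31 genes after Control-768, 28 to 34 after DMSO, 15 to 26 after 0.25 µM and 41 after 0.5 µM. Leaving out all arrays numbered 3 gave 39, 39, 38 and 38. For resting 0.5 µM I-BET-762 against Control-768 the count of 0 became 3 with the replicate block within state and 1 with both controls, and 0 to 4 when 1 array was left out. In the other comparisons of compounds it stayed at 0 under every alternative but the one given next, the replicate block alone included, which changed no other count of the 44 genes. Leaving out both 0.5 µM arrays numbered 3 was chosen after seeing the data; together with the replicate block within state it gave 4 for resting 0.5 µM against Control-768, 1 for the step between concentrations in resting cells, 5 for both concentrations pooled in resting cells and 4 in restimulated cells. Among 44 genes on restimulation under Control-768, Gar1, Pes1 and Utp18 lost the call most often, under 8, 8 and 7 alternatives.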
